A study of Mus musculus with 24 samples.

Results

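The genes described here are 40 genes of the cellular defense against oxidants: the transcription factor NRF2 (gene Nfe2l2) and its repressor KEAP1, enzymes of glutathione and thioredoxin chemistry, superoxide dismutases, catalase, NADPH-producing enzymes, and proteins that bind heme-derived iron or metals. They were listed by gene symbol, and all 40 were found among the 56941 genes of the deposited tables. After a filter on low counts 39 of them were tested, of 13318 genes tested in all. The exception was Gpx7, a glutathione peroxidase of the endoplasmic reticulum, which had 0 to 3 counts in every library.

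RNA sequencing was performed on monolayers of C2C12 muscle, a mouse myoblast line that fuses into multinucleated myotubes in culture. All cells, those of the control included, carried the genotype ChR2::tdTomato, a channelrhodopsin that opens under blue light and is tagged with a red fluorescent protein, and were differentiated on fibrin hydrogels in horse serum with IGF-1. Tissues received light pulses at 1, 4, or 10 Hz for 30 min per day, or no stimulation (control), with 6 biological replicates per condition and 24 libraries in all. The question was how the transcriptome of optically exercised muscle depends on the stimulation frequency. Per the study, tissues of every condition also twitched spontaneously, so the control was unstimulated but not necessarily without contraction, and the monolayers were grown from this line alone. In such bulk RNA, fewer cells of a type and less RNA per cell cannot be told apart.

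Contracting muscle produces superoxide and hydrogen peroxide. In the resting cell KEAP1 holds NRF2 in the cytosol and sends it to degradation, and oxidants or electrophiles that modify KEAP1 cysteines let NRF2 enter the nucleus, where with small MAF proteins it binds the antioxidant response element of genes such as Nqo1, Gclm, Srxn1, and Txnrd1. Because NRF2 is regulated mostly at the level of the protein, its mRNA is not a readout of its activity. Glutathione is made from cysteine, glutamate, and glycine, is oxidized when glutathione peroxidases reduce peroxides, and is returned to its reduced form by glutathione reductase with NADPH. Peroxiredoxins reduce peroxides in parallel and are recharged by thioredoxin and sulfiredoxin.

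The antioxidant response element is the sequence that NRF2 binds, and stretches just before a RefSeq start site of 4 of the 40 genes are shown. Its core is seen in the stretches of Gclm, Prdx1, and Txnrd1. Promoter windows (250 bases before to 50 after the start site, RefSeq) were found for 34 of the 40 genes, with Gclc, Gsr, Prdx6, Sod3, Gsta4, and Hmox1 not among them. The stretches lie on the plus strand of GRCm39, where each was placed by an exact match, and outside the annotated exons of the gene in GENCODE M39. Capitals mark the element's core TGACNNNGC, on either strand, and the AP-1 site TGANTCA, which is bound by FOS and JUN proteins.
Gclm, chr3:122039056-122039125: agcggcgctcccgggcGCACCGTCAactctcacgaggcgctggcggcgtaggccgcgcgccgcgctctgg
Prdx1, chr4:116542646-116542684: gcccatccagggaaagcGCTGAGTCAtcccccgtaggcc
Txnrd1, chr10:82694890-82695012: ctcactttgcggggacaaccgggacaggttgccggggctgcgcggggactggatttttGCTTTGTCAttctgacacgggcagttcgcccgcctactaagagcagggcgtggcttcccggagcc
Srxn1, chr2:151947294-151947435: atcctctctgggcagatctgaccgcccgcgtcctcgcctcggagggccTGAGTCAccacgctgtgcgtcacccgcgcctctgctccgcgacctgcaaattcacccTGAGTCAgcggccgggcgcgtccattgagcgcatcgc
In Gclm, Prdx1, and Txnrd1 the core lay on the minus strand, with its most upstream base 134, 133, and 92 bases before the start site. In Prdx1 it overlapped an AP-1 site. The start sites used lie inside the annotated genes, which begin further upstream. On the plus strand these are Gclm chr3:122039126-122065061, Prdx1 chr4:116532123-116558398, Txnrd1 chr10:82669785-82733546, and Srxn1 chr2:151947436-151957687. The Gclm and Srxn1 stretches end at the base before the annotated gene, 81 and 9 bases before the start site used. Srxn1 had a pair of AP-1 sites, 102 and 45 bases before the start, and its core lay past the start. Over the whole windows the core was found in 10 of the 34 genes (Nfe2l2, Gclm, Txnrd1, Srxn1, Prdx1, Sod1, Mgst1, G6pdx, Pgd, and Mt2), against 13.99% of the 27025 genes with a window. The AP-1 site was found in 4 of 34 (Srxn1, Glrx, Prdx1, and Mt2, against 8.973% of genes), and in Prdx1 and Mt2 it overlapped the core. The metal response element, searched as TGCACNC or TGCGCNC, was found in 11 of 34, against 28.23% of genes, and the 11 included the metallothioneins Mt1 and Mt2. These matches are letters in a window, not binding sites, and among the genes with a core Gclm fell, Mgst1 rose, and Sod1 did not pass the test (values below).

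Total counts were 4.09 to 15.2 M (mega) per library, with a median of 7.48 M, and the 40 genes took 1.03% to 1.32% of the counts of each library. Muscle markers were present in every library (12 of 12), and their summed level did not overlap control at 1 and 4 Hz: 8316 to 10783 CPM (counts scaled to the library total, with TMM) in control, 12801 to 17497 at 1 Hz, 13468 to 20235 at 4 Hz, and 9292 to 14455 at 10 Hz. Of these 12 markers 8 were called higher at 1 Hz, 9 at 4 Hz, and 3 at 10 Hz. Of 7 markers of myoblasts and reserve cells, all above 0 in every library, Pax7 and Myod1 were called higher at 1 Hz (log2 fold changes 0.99 and 1.17) and at 4 Hz (1.04 and 1.51), and Myf5 was lower at 4 Hz (-0.61). Their sum was 184.5 to 327 CPM in control, 284 to 378 at 1 Hz, 287 to 408 at 4 Hz, and 232 to 389 at 10 Hz. The sum of 8 markers of proliferating cells, all above 0 in every library, was 189 to 233 CPM in control, 159.9 to 187 at 1 Hz, 158 to 194 at 4 Hz, and 173 to 239.9 at 10 Hz. The 1 Hz sum lay below control without overlap, but Pcna made up most of it, with group means of 123 to 159 CPM. At 1 Hz the log2 fold change was positive for 4 of the 8 markers and negative for 4, and 0 were called. Of these 8, Mki67 and Top2a were called higher at 4 Hz (1.28 and 0.69), while Pcna and Cdk1 fell with a log2 fold change smaller than 0.5 at 1 Hz (-0.33 and -0.38) and at 4 Hz (-0.35 and -0.38). Of 6 fibroblast markers 4 were above 0 in every library, and their sum was 65.9 to 114 CPM in control, 85.3 to 103 at 1 Hz, 65.4 to 103 at 4 Hz, and 60.2 to 81.3 at 10 Hz, with Postn called higher at 1 and 4 Hz (0.66 and 0.55) and Dcn lower at 4 Hz (-0.59). Of 6 leukocyte markers the lysosomal Cd68 made up nearly all of the sum, with group means of 82.8 to 96.2 CPM, while Ptprc was at 0 in every control, 4 Hz, and 10 Hz library, and the low Csf1r was called lower at 4 Hz (-1.33). Endothelial markers stayed at or below 2.00 CPM in sum. The part of these cell markers in the results below was not tested. Measures of library quality also differed between the groups. Total counts were 4.19 to 7.65 M in control, 4.09 to 15.2 M at 1 Hz, 7.55 to 11.5 M at 4 Hz, and 5.41 to 12.1 M at 10 Hz. Mitochondrial genes took 2.01% to 3.18% of counts in control, 1.46% to 2.47% at 1 Hz, 1.80% to 4.71% at 4 Hz, and 2.28% to 4.79% at 10 Hz. The part of depth and of mitochondrial counts in the results below was not tested. The summed level of 20 short noncoding RNAs without a poly(A) tail was 51.2 to 93.9 CPM in control and 22.9 to 176 CPM at 10 Hz, but only 6.87 to 32.3 CPM at 1 Hz and 8.92 to 26.5 CPM at 4 Hz, without overlap with control. Per the labels, low-input samples, which they do not name, were made by ribodepletion instead of poly(A) selection, and whether the share marks those libraries was not tested. Calls at 1 and 4 Hz are therefore given also from a fit with the log2 of this small RNA share as a covariate, in which frequency and share cannot be told apart.

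Expression of the 40 genes in control tissue differed widely per transcript length. The ferritin chains Fth1 and Ftl1, which store iron, led with 5047 ± 327 and 2167 ± 216 TPM (length-normalized transcript levels, mean ± SD, n = 6), followed by the metallothioneins Mt2 (1966 ± 315) and Mt1 (1407 ± 238), which bind zinc and copper. Next came 3 peroxide-reducing enzymes, the cytosolic peroxiredoxin Prdx1 at 1001 ± 119 TPM, the lipid peroxide reductase Gpx4 at 965 ± 83.2, and Prdx6 at 865 ± 88.1, and then the copper-zinc superoxide dismutase Sod1 at 734 ± 62. At the low end were the extracellular dismutase Sod3 (5.11 ± 1.32 TPM) and the cystine transporter Slc7a11 (1.13 ± 0.403 TPM). Summed over the 40 genes, the level was 16581 to 21065 TPM per library over all 4 conditions.

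**Figure D1:**
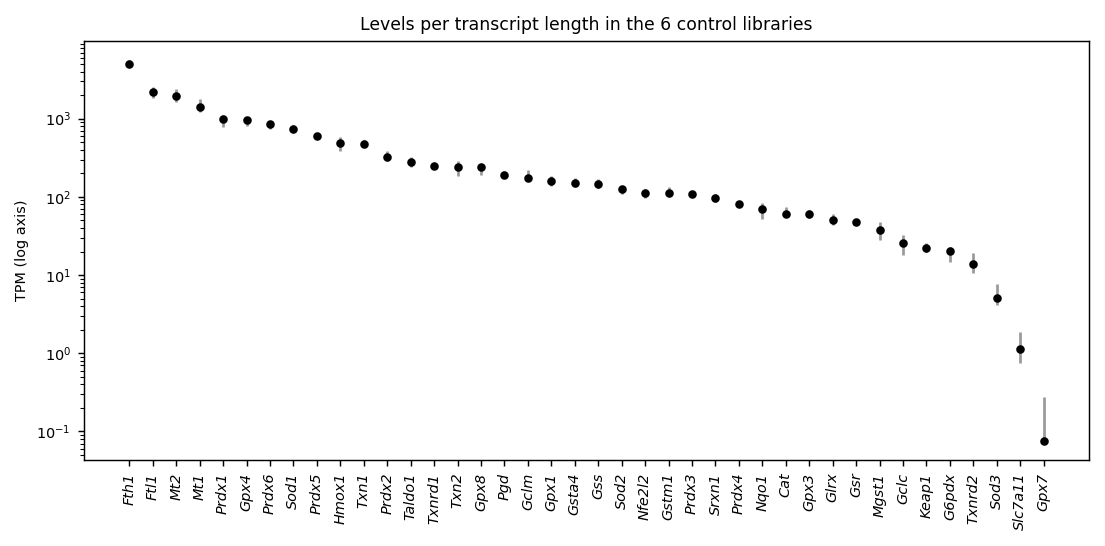
Level of each of the 40 genes in control tissue. The vertical axis is TPM on a log scale, points are means of 6 libraries and lines run from the lowest to the highest library (a lowest value of 0, as for Gpx7, is not drawn). Fth1 is the highest at 5047 TPM and Gpx7 the lowest at 0.0756 TPM.

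The number of these genes called against control differed between the 3 frequencies. A gene is called higher or lower here at an edgeR adjusted p below 0.05 over all 13318 genes with an absolute log2 fold change above 0.5, and a gene that "rose within the limit" or "fell within the limit" passed the adjusted p with a smaller fold change. At 1 Hz 4 of the 39 genes were higher and 3 lower than control, where 9.34% of all genes tested were higher and 8.99% lower. At 4 Hz 9 were higher and 4 lower, against 10.5% and 9.61% of all genes. At 10 Hz 5 were higher and 0 lower, against 1.24% and 0.623% of all genes, and at an unadjusted p below 0.05 10 of the 39 were higher and 2 lower, beside 1388 and 1362 of all 13318 genes. The share of the members called was therefore near the background at 1 Hz, above it for higher calls at 4 Hz, and above it for higher calls at 10 Hz, where 5 of 39 genes stand beside 165 of 13318. No test of the list as a whole was made. The genes were chosen with earlier results of these data known, so these shares cannot decide whether the list differs from other genes. The part of that choice in the shares was not tested. The median log2 fold change of the 39 genes was -0.03 at 1 Hz, 0.04 at 4 Hz, and 0.11 at 10 Hz, beside -0.01, -0.01, and -0.01 over all genes tested. The adjusted p alone was passed by 12 higher and 8 lower at 1 Hz (18.1% and 17.3% of all genes), by 15 and 8 at 4 Hz (19.2% and 20.2%), and by 7 and 0 at 10 Hz (2.67% and 2.22%). The direction split at 4 Hz depended on the scaling. With scaling by total count it was 6 higher and 5 lower, beside 1012 and 1821 of all 13318 genes, whose median moved to -0.11. With limma on log2(TPM + 1) it was 4 and 6, beside 677 and 2057 of all 13627 genes, whose median moved to -0.16. At 10 Hz, 5 were higher with scaling by total count, beside 139 of all 13318 genes. With limma on log2(TPM + 1) 2 were higher at 10 Hz, beside 77 of all 13627 genes. The medians there were -0.04 for the members and -0.09 for all genes. With the small RNA share as a covariate, the members called fell from 7 to 0 at 1 Hz, from 13 to 3 at 4 Hz (Gsta4, Prdx2, and Gsr), and stayed at the same 5 at 10 Hz. Over all genes tested the number of calls with this covariate was 1 at 1 Hz, against 2441 without it, 277 at 4 Hz, against 2676, and 227 at 10 Hz, against 248. Of the 20 genes that passed the adjusted p alone at 1 Hz 0 passed with it, and at 4 Hz 3 passed with it beside 23 without. Without 1 Hz replicate 1, the count of higher genes at 1 Hz was 7, beside 1413 of all 13458 genes. Since the 3 comparisons share the control libraries, their calls are not independent of each other.

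**Figure D2:**
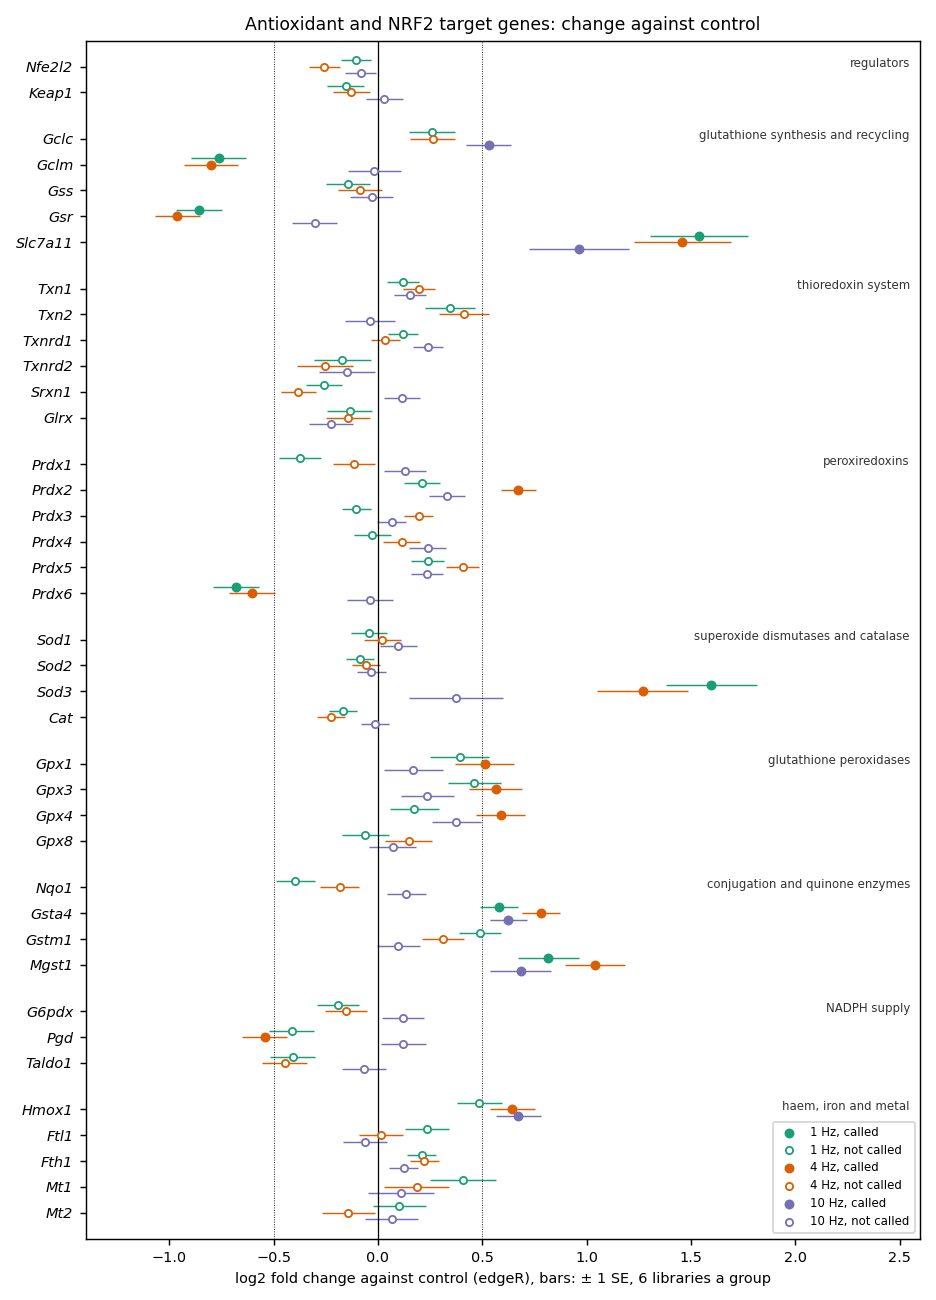
Log2 fold change against control of the 39 genes tested, ordered by role. Points are edgeR estimates at 1, 4, and 10 Hz with bars of ± 1 SE (6 libraries per condition), filled where the gene was called, and dotted lines mark the fold change limit of 0.5. Slc7a11, Mgst1, and Gsta4 lie to the right at all 3 frequencies, while Gsr, Gclm, and Prdx6 lie to the left at 1 and 4 Hz and near 0 at 10 Hz, except Gsr at -0.30.

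Neither regulator was called at any frequency. Nfe2l2 ranged over 153 to 193 CPM in control (median 173), 147 to 189.9 at 1 Hz (155), 137 to 152 at 4 Hz (142), and 138 to 174 at 10 Hz (169). The 4 Hz libraries all lay below the control libraries, by a small margin, while the other frequencies overlapped control. The log2 fold change was -0.26 ± 0.07 (SE) at 4 Hz (edgeR adjusted p = 0.00683), which passed the test but not the fold change limit, and -0.11 ± 0.07 at 1 Hz and -0.08 ± 0.07 at 10 Hz, which did not pass. Keap1 ranged over 39.9 to 54.9 CPM in control (median 45.3), 35 to 46.9 at 1 Hz (42.8), 39 to 48 at 4 Hz (41.8), and 41.2 to 54.1 at 10 Hz (46.9), overlapped between all conditions, and did not pass the test at any frequency (lowest adjusted p against control 0.176).

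In glutathione synthesis, the mRNAs of the cystine transporter and of the modifier subunit of the rate-limiting enzyme changed in opposite directions at 1 and 4 Hz. Slc7a11 (GRCm39 chr3:49846975-50398070), the light chain of the cystine-glutamate exchanger and a target of NRF2 and ATF4, ranged over 4.88 to 11.4 CPM in control (median 6.51), 11.9 to 28.5 at 1 Hz (18.8), 14.8 to 24.7 at 4 Hz (19.5), and 10.1 to 19.6 at 10 Hz (12.7). Every 1 and 4 Hz library lay above every control library, and at 10 Hz 5 of 6 did. The log2 fold change was 1.54 ± 0.23 at 1 Hz (edgeR adjusted p = 2.91e-05), 1.46 ± 0.23 at 4 Hz (3e-05), and 0.96 ± 0.24 at 10 Hz (0.0182). Control replicate 1 was the highest control library at 11.4 CPM, beside 7.04 CPM in the next. With the small RNA share as a covariate the values were 1.11 ± 0.38 at 1 Hz (adjusted p = 0.296), 1.09 ± 0.35 at 4 Hz (0.0881), and 0.94 ± 0.24 at 10 Hz (0.0196).

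Gclm (chr3:122039126-122065061), the modifier subunit of glutamate-cysteine ligase, ranged over 103 to 166 CPM in control (median 130.5), 65.8 to 84.8 at 1 Hz (76.1), 57.2 to 100.1 at 4 Hz (69.2), and 103 to 161 at 10 Hz (120.0). The 1 and 4 Hz libraries all lay below the lowest control library, and the 10 Hz libraries overlapped control. It fell by 0.76 ± 0.13 on the log2 scale at 1 Hz (edgeR, adjusted p = 0.000101), and by a similar 0.80 ± 0.13 at 4 Hz (3.5e-05), and the difference was -0.02 ± 0.13 at 10 Hz (0.961). The catalytic subunit Gclc (chr9:77661797-77701770), which carries the active site, ranged over 37.7 to 71.4 CPM in control (median 58.8), 59.9 to 82.1 at 1 Hz (68.1), 64.6 to 75.6 at 4 Hz (69.9), and 71.5 to 94.1 at 10 Hz (82.8). It rose at 10 Hz, where all 6 libraries lay just above the highest control library, by 0.53 ± 0.11 (adjusted p = 0.00516), a call that was lost without control replicate 2 (0.44) or 10 Hz replicate 5 (0.50). At 1 and 4 Hz Gclc differed by 0.26 ± 0.11 and 0.26 ± 0.11 and did not pass (adjusted p = 0.0683 and 0.0581).

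The ratio of Gclm to Gclc, per length in TPM, was 4.96 to 9.15 in control libraries, with a median of 6.76, and 2.39 to 3.49 at 1 Hz, with a median of 3.03. It was 2.40 to 4.31 at 4 Hz (median 2.92) and 2.95 to 6.16 at 10 Hz (median 4.38). The ratio of the paired subunits was thus lower in every 1 and 4 Hz library than in any control library, and overlapped control at 10 Hz. This ratio was chosen after the values of the subunits were seen and is given without a test. Gss, glutathione synthetase, which adds glycine in the last step, overlapped between conditions and did not pass (log2 fold changes -0.14, -0.09, and -0.03).

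Gsr (chr8:34142551-34188192), the reductase that returns oxidized glutathione to its reduced form, had the largest fall among the 39 genes at 1 and 4 Hz. It ranged over 68.4 to 84.6 CPM in control (median 79.4), 36.5 to 57.2 at 1 Hz (41.6), 32.7 to 49.8 at 4 Hz (38.9), and 53.7 to 73.4 at 10 Hz (61.9). Control and the 2 lower frequencies were separated with no overlap, with 1 Hz replicate 1 the closest to control, and 10 Hz lay between. The change on the log2 scale was -0.86 ± 0.11 at 1 Hz (edgeR adjusted p = 4.66e-06), -0.96 ± 0.11 at 4 Hz (5.03e-07), and -0.30 ± 0.11 at 10 Hz (0.0955), the last not past the test. With the small RNA share as a covariate it was -0.60 ± 0.17 at 1 Hz (adjusted p = 0.238) and -0.71 ± 0.17 at 4 Hz (0.0231), and the 4 Hz call held. For Gclm the covariate left -0.37 ± 0.20 and -0.43 ± 0.19, past no limit on the adjusted p (0.565 and 0.223).

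**Figure D3:**
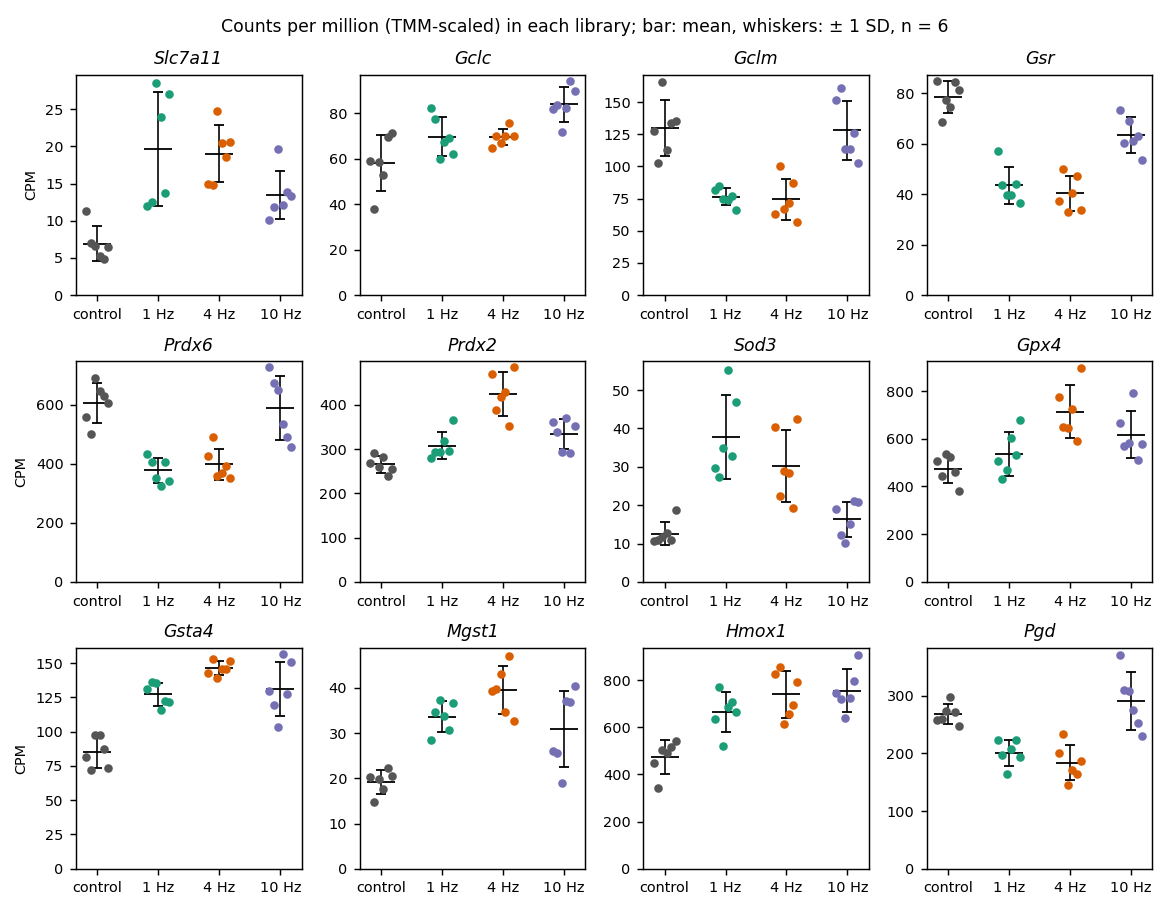
CPM of 12 genes in each of the 24 libraries, on linear axes from 0. Points are libraries, the bar is the mean and whiskers are ± 1 SD (n = 6). Gclm, Gsr, Prdx6, and Pgd are low at 1 and 4 Hz and return toward or to control levels at 10 Hz, where Gclm has a median of 120.0 CPM beside 130.5 CPM in control.

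Of the thioredoxin system, none of the 6 members was called against control. Txnrd1, the cytosolic thioredoxin reductase, ranged over 437 to 575 CPM in control (median 496), 508 to 574 at 1 Hz (553), 479.9 to 576 at 4 Hz (506), and 526 to 649 at 10 Hz (594), with overlap throughout. It passed the adjusted p alone at 10 Hz, with a log2 fold change of 0.24 ± 0.07 (edgeR adjusted p = 0.0456). Srxn1, sulfiredoxin, which rescues overoxidized peroxiredoxins and whose AP-1 sites are shown above, ranged over 148 to 209 CPM in control (median 175), 131 to 156 at 1 Hz (148), 121 to 160.2 at 4 Hz (131), and 169 to 219 at 10 Hz (187). It fell by less than the fold change limit at 1 Hz (-0.26 ± 0.08, adjusted p = 0.019) and at 4 Hz (-0.38 ± 0.08, 0.000884), and did not pass at 10 Hz (0.11 ± 0.08, 0.476). Mitochondrial thioredoxin Txn2 rose by 0.35 ± 0.12 at 1 Hz and 0.41 ± 0.12 at 4 Hz (adjusted p = 0.026 and 0.00798), and cytosolic Txn1 by 0.20 ± 0.08 at 4 Hz (0.0429). Txnrd2, the mitochondrial reductase, and the glutaredoxin Glrx passed at no frequency.

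The 6 peroxiredoxins split. Prdx6 (chr1:161051417-161079098), which reduces phospholipid peroxides with glutathione rather than thioredoxin, ranged over 499.9 to 689.8 CPM in control (median 618), 324 to 434 at 1 Hz (379.8), 352 to 490.3 at 4 Hz (382), and 458 to 727 at 10 Hz (593). All 1 and 4 Hz libraries lay below all control libraries, and the 10 Hz libraries spread across the control range. Its log2 fold change was -0.68 ± 0.11 at 1 Hz (edgeR adjusted p = 5.91e-05), -0.60 ± 0.11 at 4 Hz (0.000138), and -0.04 ± 0.11 at 10 Hz (0.892). Prdx2 (chr8:85693354-85702350), a cytosolic peroxiredoxin, ranged over 239 to 290.5 CPM in control (median 264), 279.8 to 365 at 1 Hz (295), 352 to 486 at 4 Hz (423), and 291 to 370.4 at 10 Hz (346). The 4 Hz and the 10 Hz libraries all lay above the control libraries. Its log2 fold change was 0.67 ± 0.09 at 4 Hz (1.79e-06), called, and 0.33 ± 0.09 at 10 Hz (0.0221), below the fold change limit, while 0.21 ± 0.09 at 1 Hz did not pass (0.0548).

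With the covariate Prdx2 at 4 Hz kept its call (0.62 ± 0.13, adjusted p = 0.0153), and was 0.40, under the limit, in the limma fit of log2(TPM + 1). Prdx6 with the covariate was -0.24 ± 0.15 at 1 Hz and -0.18 ± 0.15 at 4 Hz, neither past the test (0.641 and 0.562). Prdx1, whose upstream stretch holds the core and AP-1 match, fell at 1 Hz by less than the limit (-0.37 ± 0.10, 0.00564). Prdx5 rose within the limit at 1 and 4 Hz (0.24 ± 0.08 and 0.41 ± 0.08, adjusted p = 0.0194 and 0.000221), as did the mitochondrial Prdx3 at 4 Hz (0.20 ± 0.07, 0.0259). Prdx4, of the endoplasmic reticulum, passed at no frequency against control.

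Among the superoxide dismutases and catalase, only the extracellular dismutase was called. Sod3 (chr5:52521070-52528883), which is secreted and binds the matrix, ranged over 10.6 to 18.6 CPM in control (median 11.3), 27.4 to 55.2 at 1 Hz (33.8), 19.1 to 42.3 at 4 Hz (28.6), and 10 to 21 at 10 Hz (16.9). Every 1 and 4 Hz library lay above every control library, including control replicate 6, which at 18.6 CPM was far above the next control library (12.8), and 10 Hz overlapped control. In log2 fold change this was 1.60 ± 0.22 at 1 Hz (edgeR adjusted p = 9.97e-06), 1.27 ± 0.22 at 4 Hz (6.5e-05), and 0.37 ± 0.22 at 10 Hz (0.365). With the covariate it was 1.18 ± 0.35 and 0.89 ± 0.33 at 1 and 4 Hz (adjusted p = 0.239 and 0.145). The intracellular dismutases passed at no frequency. Sod1, cytosolic, ranged over 227 to 284 CPM in control (median 245), 217 to 256 at 1 Hz (248), 209 to 294 at 4 Hz (254), and 232 to 313 at 10 Hz (256), and the mitochondrial Sod2 over 92.7 to 112 CPM in control (median 100.4), 86.4 to 104 at 1 Hz (96.8), 85.9 to 106 at 4 Hz (98), and 95.3 to 101 at 10 Hz (99.2). Catalase (Cat) ranged over 91 to 108 CPM in control (median 101), 79.3 to 99.9 at 1 Hz (89.2), 80.4 to 92.3 at 4 Hz (85.7), and 90.4 to 111 at 10 Hz (98.4), and fell within the limit at 4 Hz (-0.23 ± 0.07, 0.00846).

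The selenium-dependent glutathione peroxidases were called higher at 4 Hz with TMM scaling. Gpx4 (chr10:79883000-79892273), the only one of them that reduces peroxides within membrane phospholipids, ranged over 380.4 to 537 CPM in control (median 484), 430.3 to 677 at 1 Hz (519.9), 590.2 to 899 at 4 Hz (688), and 512 to 792 at 10 Hz (580.1). All 4 Hz libraries lay above all control libraries, and 1 and 10 Hz overlapped control. The log2 fold change was 0.59 ± 0.12 at 4 Hz (edgeR adjusted p = 0.000346), 0.17 ± 0.12 at 1 Hz (0.258), and 0.38 ± 0.12 at 10 Hz (0.061). Counts assigned to copies named as Gpx4 pseudogenes came to 9.86% of those of Gpx4, and the pseudogene Gpx4-ps2 differed by 0.53 ± 0.10 at 4 Hz (0.000198), so reads may be split between them. Cytosolic Gpx1 (chr9:108216102-108217546) ranged over 59.5 to 78.3 CPM in control (median 73.7), 77.4 to 119.5 at 1 Hz (83.5), 73.3 to 137 at 4 Hz (100.3), and 59.3 to 98.9 at 10 Hz (80.7), and was called at 4 Hz (0.51 ± 0.14, 0.00534). The secreted Gpx3 (chr11:54793279-54802424) ranged over 52.1 to 63.8 CPM in control (median 61.2), 58 to 106 at 1 Hz (83.3), 76 to 105 at 4 Hz (85.7), and 48.2 to 82.2 at 10 Hz (76.4), and was called at 4 Hz as well (0.56 ± 0.13, 0.000989), and both passed the adjusted p alone at 1 Hz (0.39 ± 0.14 and 0.46 ± 0.13, 0.0323 and 0.00644). With the covariate the 4 Hz values were 0.53 ± 0.19 for Gpx4, 0.67 ± 0.23 for Gpx1, and 0.38 ± 0.20 for Gpx3, none past the test. These 4 Hz calls depended on the scaling. With scaling by total count 6 members were higher at 4 Hz, beside 9 with TMM, and the calls lost were among Gpx4, Gpx1, Gpx3, and Hmox1. Gpx8 passed at no frequency.

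Gsta4 and Mgst1 were, with Slc7a11, the genes called higher at all 3 frequencies. Gsta4 (chr9:78090056-78117763), a glutathione transferase that detoxifies the lipid peroxidation product 4-hydroxynonenal, ranged over 72.1 to 97.6 CPM in control (median 84.5), 116 to 136 at 1 Hz (127), 139 to 153 at 4 Hz (146), and 104 to 157 at 10 Hz (128). Every stimulated library lay above every control library. The rise in log2 fold change was 0.58 ± 0.09 at 1 Hz (edgeR adjusted p = 4e-05), 0.78 ± 0.09 at 4 Hz (6.09e-07), and 0.63 ± 0.09 at 10 Hz (0.000443). With the covariate it was 0.46 ± 0.15 at 1 Hz (0.258), 0.67 ± 0.14 at 4 Hz (0.0109), and 0.61 ± 0.09 at 10 Hz (0.000379), so the call held at 4 and 10 Hz and not at 1 Hz.

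Mgst1 (chr6:138117314-138133774), a membrane-bound transferase and peroxidase, ranged over 14.8 to 22.3 CPM in control (median 20.1), 28.5 to 37.3 at 1 Hz (34.3), 32.8 to 47.2 at 4 Hz (39.6), and 19.1 to 40.5 at 10 Hz (31.5). The 1 and 4 Hz libraries all lay above control, and 5 of 6 at 10 Hz did. Its log2 fold change was 0.82 ± 0.15 at 1 Hz (edgeR adjusted p = 0.000159), 1.04 ± 0.15 at 4 Hz (5.75e-06), and 0.68 ± 0.15 at 10 Hz (0.00691). Its call was lost with the covariate at 1 and 4 Hz (0.39 ± 0.21 and 0.65 ± 0.20), and at 10 Hz on the log2(TPM + 1) scale (0.42). Gstm1 rose within the limit at 1 and 4 Hz (0.49 ± 0.10 and 0.31 ± 0.10, adjusted p = 0.000625 and 0.0161). Nqo1, the quinone reductase most often used as a readout of NRF2, ranged over 50.6 to 76 CPM in control (median 69.6), 45.9 to 57.6 at 1 Hz (50.4), 50.9 to 70.6 at 4 Hz (59), and 61.1 to 82.6 at 10 Hz (74.9). It fell within the limit at 1 Hz (-0.40 ± 0.09, 0.00201), and its values at 4 and 10 Hz did not pass (-0.18 ± 0.09 and 0.14 ± 0.09).

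Of the 3 genes of the pentose phosphate pathway, which supplies NADPH, Pgd and Taldo1 fell at 1 and 4 Hz. Pgd (chr4:149233246-149251228), the second NADPH-producing enzyme of the pentose phosphate pathway, ranged over 247 to 298 CPM in control (median 266), 164 to 224 at 1 Hz (202), 146 to 234 at 4 Hz (179.6), and 229.5 to 371 at 10 Hz (292). The 1 and 4 Hz libraries all lay below control, and the 10 Hz libraries spread around it. The log2 fold change was -0.54 ± 0.11 at 4 Hz (edgeR adjusted p = 0.000318), called, though without 4 Hz replicate 3 it was -0.48 and under the limit, and -0.41 ± 0.11 at 1 Hz (0.00426). Taldo1, a transaldolase of the same pathway, fell within the limit at 1 and 4 Hz (-0.41 ± 0.11 and -0.45 ± 0.11, 0.00463 and 0.00187). G6pdx, the first enzyme of the pathway, did not pass against control (-0.19 ± 0.10, -0.15 ± 0.10, and 0.12 ± 0.10). With the covariate none of the 3 passed at 1 or 4 Hz, and Pgd at 4 Hz was -0.23 ± 0.16.

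Hmox1 (chr8:75820241-75827217), heme oxygenase, which breaks heme down to biliverdin, carbon monoxide, and iron, ranged over 344 to 542 CPM in control (median 496), 520.2 to 771 at 1 Hz (676), 614 to 858 at 4 Hz (745), and 638 to 907 at 10 Hz (735). All 4 and 10 Hz libraries lay above all control libraries, and at 1 Hz 5 of 6 did. Its log2 fold change was 0.64 ± 0.11 at 4 Hz (edgeR adjusted p = 5.36e-05) and 0.67 ± 0.11 at 10 Hz (0.000854), both called, and 0.49 ± 0.11 at 1 Hz (0.0012), just under the limit. With the covariate it was 0.61 ± 0.17 at 4 Hz (0.0592) and 0.67 ± 0.11 at 10 Hz (0.00102), and the call held at 10 Hz.

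The iron and metal binding proteins changed less. Fth1, the ferritin heavy chain, ranged over 2422 to 3024 CPM in control (median 2627), 2833 to 3298 at 1 Hz (3109.9), 2893 to 3499.8 at 4 Hz (3050.2), and 2732 to 3232 at 10 Hz (2896), and rose within the limit at 1 and 4 Hz (0.21 ± 0.07 and 0.22 ± 0.07, edgeR adjusted p = 0.0207 and 0.0126). The light chain Ftl1 ranged over 989 to 1399 CPM in control (median 1179.5), 1229 to 1609.6 at 1 Hz (1420.4), 1023 to 1477 at 4 Hz (1198), and 942 to 1374 at 10 Hz (1193) and passed at no frequency. Counts in named Ftl1 pseudogenes were 2.37% of those of Ftl1. Mt1 ranged over 313 to 496 CPM in control (median 364), 397 to 596 at 1 Hz (517), 332 to 567 at 4 Hz (413), and 275 to 540.4 at 10 Hz (417), and rose within the limit at 1 Hz (0.41 ± 0.16, 0.0449). Mt2, its neighbor on chromosome 8, ranged over 372 to 600.4 CPM in control (median 459), 417 to 605 at 1 Hz (510.4), 339.9 to 494 at 4 Hz (436), and 369 to 645 at 10 Hz (507), and did not pass.

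The comparisons between frequencies address whether the difference between 10 Hz and the lower frequencies is itself beyond the spread. Between 4 and 1 Hz 0 of the 39 genes were called either way with edgeR, beside 1.59% of all genes higher and 1.4% lower at 4 Hz. At an unadjusted p below 0.05, 7 were higher and 2 lower, beside 1713 and 1872 of all 13318 genes. The adjusted p alone was passed by 3 genes, all higher (Prdx2 0.46 ± 0.08, Prdx3 0.30 ± 0.07, and Gpx4 0.41 ± 0.12), beside 5.71% of all genes higher and 6.56% lower. With DESeq2 0 were called either way, and without 1 Hz replicate 6 or 4 Hz replicate 5 the count of higher genes was 1.

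At 10 Hz 6 genes were higher and 2 lower than at 1 Hz, beside 9.45% and 8.49% of all genes. The adjusted p alone was passed by 11 higher and 5 lower (17.7% and 18.5% of all genes). The 6 were Gclm (0.75 ± 0.13, edgeR adjusted p = 9.64e-05), Prdx6 (0.64 ± 0.11, 8.33e-05), Gsr (0.56), Pgd (0.53), Nqo1 (0.53), and Prdx1 (0.50). For Gclm, Prdx6, Nqo1, Prdx1, and Pgd the libraries of the 2 frequencies did not overlap. How many of all genes tested did not overlap was not counted, here or for the genes above, so the lack of overlap does not set these genes apart. Sod3 was lower at 10 Hz (-1.23 ± 0.21, 6.96e-05), as was Slc7a11 (-0.58 ± 0.21, 0.0356), whose call was lost without 1 Hz replicate 3, 4, or 6, without 10 Hz replicate 1, 2, 4, or 6, and in a fit of only the 12 libraries compared. The count of lower genes was then 1. On the log2(TPM + 1) scale the split was 2 higher and 2 lower, beside 743 and 1060 of all 13627 genes.

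Against 4 Hz, 4 genes were higher at 10 Hz and 1 was lower, beside 5.32% and 5.64% of all genes, and 10 and 3 passed the adjusted p alone (10.9% and 11.9%). The 4 were Gclm (0.78 ± 0.13, edgeR adjusted p = 0.000235), Pgd (0.66 ± 0.11, 0.000216), Gsr (0.66), and Prdx6 (0.56), and Sod3 was the one lower (-0.90 ± 0.21, 0.00324). Srxn1, whose 10 Hz libraries all lay above those at 1 and 4 Hz, differed by 0.37 ± 0.08 and 0.50 ± 0.08 and passed the adjusted p alone (0.00121 and 0.000296). For Hmox1, Gsta4, and Mgst1, which were higher than control at 10 Hz, the differences between 10 Hz and either lower frequency did not pass (lowest adjusted p = 0.0607). Without 4 Hz replicate 5, 10 Hz replicate 3, or 10 Hz replicate 4, 2 genes were lower at 10 Hz than at 4 Hz. With the covariate 0 of the 8 calls against 1 Hz and 0 of the 5 against 4 Hz held, and over all genes tested the calls went from 2390 to 111 and from 1460 to 0.

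**Figure D4:**
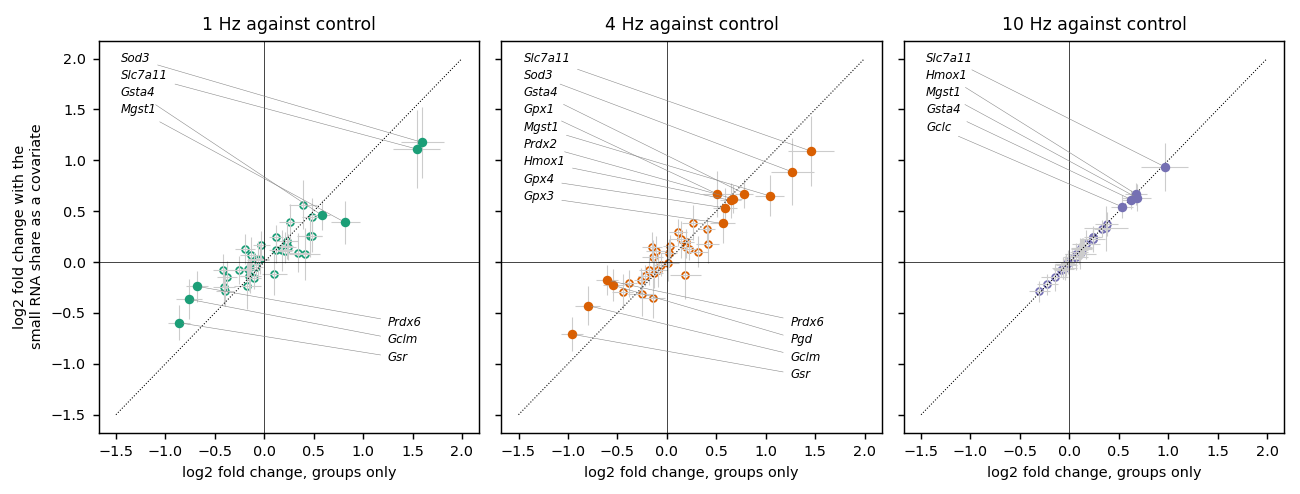
Log2 fold change against control from the fit with the 4 conditions alone (horizontal axis) and from the fit with the log2 share of small non-polyadenylated RNAs added (vertical axis), for the 39 genes. Filled points with names are called without the covariate, bars are ± 1 SE, and the dotted line marks equal values. At 1 and 4 Hz called values move toward 0, with the exception of Gpx1 at 4 Hz (0.51 and 0.67), and at 10 Hz the points stay on the line.

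Of 85 other genes of the same pathways, 72 were tested. At 1 Hz 9 were higher and 5 lower, beside 9.34% and 8.99% of all genes. At 4 Hz 8 and 5 were (10.5% and 9.61% of all genes), and at 10 Hz 2 and 1 (1.24% and 0.623%). The adjusted p alone was passed by 20 higher and 14 lower at 1 Hz (18.1% and 17.3% of all genes). It was passed by 26 and 12 at 4 Hz (19.2% and 20.2%), and by 3 and 2 at 10 Hz (2.67% and 2.22%). This list was not tested as a whole. Their median log2 fold changes were 0.05, 0.15, and 0.04. Txnip, which binds and inhibits thioredoxin and is driven by glucose-sensing factors, ranged over 146 to 281 CPM in control (median 160.4), 43.4 to 71.9 at 1 Hz (57.1), 93.5 to 144 at 4 Hz (98.6), and 127 to 241 at 10 Hz (187). All 1 and 4 Hz libraries lay below all control libraries, and the 10 Hz libraries overlapped control. It fell by 1.67 ± 0.18 on the log2 scale at 1 Hz (adjusted p = 1.04e-06, edgeR), and at 4 Hz it fell by 0.74 ± 0.17 (0.0014). At 10 Hz the difference of 0.06 ± 0.17 did not pass (0.883). Cth, cystathionine gamma-lyase, which makes cysteine by transsulfuration, also rose at 1 and 4 Hz (1.53 ± 0.19 and 1.34 ± 0.19, 3.73e-06 and 7.13e-06).

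Among the glutathione transferases outside the 40 genes, members went both ways. Gsta3 was higher at 1 and 4 Hz (1.86 ± 0.29 and 2.05 ± 0.28, edgeR adjusted p = 3.6e-05 and 5.37e-06) from a low level in control (median 1.17 CPM). Gstt3 was lower (-1.60 ± 0.34 and -2.14 ± 0.35, 0.000776 and 3.73e-05), and so was Gstt2 at 4 Hz (-1.25 ± 0.22, 9.92e-05). At 10 Hz Mgst2 (0.81 ± 0.16, 0.00412) and the carbonyl reductase Cbr3 (0.56 ± 0.14, 0.0176) were higher, and the stress-induced Sesn2 was lower (-0.61 ± 0.18, 0.0498). Of 8 listed partners and repressors of NRF2, Mafk, a small MAF partner, was called at 1 Hz (0.56 ± 0.08, 2.67e-05), and Bach1, a repressor at the same element, fell within the limit at 4 Hz (-0.35 ± 0.09, 0.00223). With the covariate 0 of these other genes were called at 1 Hz and 2 at 4 Hz.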

How the data were processed

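RNA sequencing was performed on 24 libraries of ChR2 C2C12 muscle, 6 per condition, with conditions and replicate numbers read from the titles. The authors made libraries from poly(A) RNA (low-input samples, not named in the labels, by ribodepletion) and processed paired-end reads with the nf-core/rnaseq pipeline and Salmon against GRCm39 with Ensembl annotation. For the release and the use of strand, the setting is not given in the sources used here. As deposited, the values are unnormalized estimated counts of each gene (expected counts) and, in a second table, TPM scaled to a fixed sum per library. Total counts were 4.09 to 15.2 M per library, which sets the counting error.

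Estimated counts were rounded to whole numbers and filtered with filterByExpr, which left 13318 genes with 99.8% of the counts. edgeR 4.0.16 (TMM, glmQLFit, glmQLFTest, R 4.3.3) was run in 1 fit of the 4 conditions, with 6 contrasts between them. Each p was adjusted over the 13318 genes by Benjamini-Hochberg. SE is the log2 fold change divided by the square root of F. CPM use TMM-scaled library sizes, and levels are compared between genes only in TPM.

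All 40 genes are accounted for. For each comparison with control, the 5 called genes with the largest change each way are described in full, for comparisons between frequencies the 2 largest each way, and 18 further genes regardless of their values. Of the other pathway genes the 2 largest each way and Txnip are named, and Mafk and Bach1 were chosen after their values were seen. The 40 genes and the lists were chosen with earlier results of these data known. p-values measure the spread between the libraries of a condition.

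The alternatives tried were total-count scaling, DESeq2 size factors, no filter, a minimum mean of 5 CPM, DESeq2 1.42.0, limma 3.58.1 on log2(TPM + 0.1) or log2(TPM + 1), for genes with a mean of 1 TPM or more or, in the latter, all genes (this scale understates the change of low genes), only the 12 libraries compared, a replicate block, the share of 20 small RNAs without a poly(A) tail as a covariate, no fold change limit, and each library left out in turn. The fit was tested on simulated data: for 1 Hz against control edgeR recovered 77.5% of 200 changed genes among 13122, with 1.90% of its calls false. Positions are from GENCODE M39 and promoter windows from RefSeq.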

Additional observations from a re-analysis of the deposited data

Results flagged for a closer look

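Of 160 groups of 6 libraries examined over the 40 genes, 4 held a single library far from the others (by the gap to the nearest library over the range of the group, Dixon's test at its 95% critical value), where chance alone marks about 1 group in 20. Gsr in 1 Hz replicate 1 was at 57.2 CPM, beside 44.1 CPM in the next highest 1 Hz library. Slc7a11 in control replicate 1 was at 11.4 CPM, beside 7.04 CPM. Sod3 in control replicate 6 was at 18.6 CPM, beside 12.8 CPM. Gstm1 in control replicate 4 was at 103 CPM, beside 82.2 CPM. Each was the highest library of its group, and without it the calls of Gsr, Slc7a11, and Sod3 against control kept their direction and their side of both limits. Gstm1 was not called against control with all libraries. Without control replicate 4, 6 members were higher at 1 Hz, beside 4 with all libraries. Of all 13433 genes tested without it, 1307 were higher.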

How the results depend on the processing

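Of 28 calls of named genes, all 28 kept direction and both limits with DESeq2 size factors, total-count scaling, no filter, a minimum of 5 CPM, DESeq2, and the replicate block; 23 or 24 did on the TPM scales, 27 with only the 12 libraries compared, and 8 with the small RNA covariate. None of the 28 reversed. The 28 do not include the 4 Hz calls of Gpx1, Gpx3, Gpx4, and Hmox1. Also outside them are Gsr, Pgd, Nqo1, and Prdx1 for 10 against 1 Hz, and Gsr and Prdx6 for 10 against 4 Hz. Total-count scaling left 6 higher members at 4 Hz, beside 9 with TMM. An adjusted p alone gave 12, 15, 3, 11, and 10 higher members (1 Hz, 4 Hz, 4 against 1 Hz, 10 against 1 Hz, 10 against 4 Hz), 8, 8, 5, and 3 lower (without 4 against 1 Hz), and 34, 38, and 5 of the 72 other pathway genes at 1, 4, and 10 Hz. Of all genes tested 18.1% were then higher and 17.3% lower at 1 Hz, 19.2% and 20.2% at 4 Hz, and 2.67% and 2.22% at 10 Hz. With log2(TPM + 1), filtered or not, 2 members were higher at 10 Hz, 4 at 4 Hz, and 2 for 10 against 1 Hz, and with log2(TPM + 0.1) these were 3, 4, and 2. Of all 13627 genes on the filtered scales, 77, 677, and 743 were higher with log2(TPM + 1), and 85, 752, and 817 with log2(TPM + 0.1). Lower members were 2 for 10 against 4 Hz on both filtered scales and 7 at 4 Hz with log2(TPM + 0.1), and 1 other gene was called at 10 Hz on all 3. For 10 against 4 Hz, 389 of all genes were lower with filtered log2(TPM + 1) and 416 with log2(TPM + 0.1). At 4 Hz 2293 were lower with log2(TPM + 0.1). The covariate left 0 higher and 0 lower at 1 Hz, 2 and 1 at 4 Hz, 0 and 0 for 10 against 1 Hz and for 10 against 4 Hz, and 0 and 2 other genes at 1 and 4 Hz. A minimum of 5 CPM left 8 other genes at 1 Hz, beside 919 higher and 742 lower of all 10577 genes. A fit of only the 12 libraries compared left 1 lower for 10 against 1 Hz, beside 1091 of all 12675 genes. The cause of these shifts was not tested.

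Leaving out each library in turn gave 4 to 7 higher members at 1 Hz, 8 to 9 at 4 Hz, 4 to 5 at 10 Hz, 0 to 1 for 4 against 1 Hz, 4 to 6 for 10 against 1 Hz, and 3 to 5 for 10 against 4 Hz. Lower members were 3 at 1 Hz, 3 to 5 at 4 Hz, 0 at 10 Hz, 0 for 4 against 1 Hz, 1 to 2 for 10 against 1 Hz, and 1 to 2 for 10 against 4 Hz. Other pathway genes were 11 to 17, 12 to 16, and 2 to 4 at 1, 4, and 10 Hz. Of all 13420 to 13470 genes tested in these fits, 1109 to 1413, 1308 to 1523, and 92 to 210 were higher at 1, 4, and 10 Hz. Lower were 1055 to 1378, 1140 to 1403, and 42 to 116. For 4 against 1, 10 against 1, and 10 against 4 Hz, 134 to 300, 1070 to 1432, and 568 to 881 were higher. Lower there were 144 to 228, 989 to 1327, and 615 to 911.

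The replicate numbers did not pair the libraries: over 36 pairs with the same number, deviations from the group means correlated at -0.18 to 0.36, 10 pairs were above 0.1, and 5 of 24 libraries were closest to their own number. The replicate block gave 2 lower members for 10 against 4 Hz and moved no other count by over 1.5 times. The effect of 1 or 4 Hz and the small RNA share cannot be told apart, since no control library is as low in it as a 1 or 4 Hz library. At 10 Hz, where libraries overlapped control in this share, the 5 calls were kept with the covariate. On the TPM scales 2 or 3 of these 5 were kept.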
